A study of Mus musculus with 6 samples.

Results

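Nuclei of the mouse mammary tumour line PB3 were compared between a culture that had gone through 4 rounds of eribulin (ERI4 nuclei) and an untreated culture (UNT nuclei). A round was 500 nM eribulin for 72 h followed by 48 h of recovery. The untreated culture received no drug, and the labels name no vehicle for it. Both were the RNA libraries of 10x Multiome, an assay that reads RNA and open chromatin from the same nucleus, and both were made in run 3, and the cells carried lentiviral lineage barcodes. The nuclei were taken as the rows of the deposited table of cells that have no S phase score, and they split into 9916 UNT nuclei and 8711 ERI4 nuclei by the deposited condition name. Together they are 18627 of the 51785 cells and nuclei of the series. Each condition is 1 library of 1 culture of 1 cell line, so the spread between cultures is unknown and no test was made. An interval after a share is an exact Clopper-Pearson 95% interval, and it covers counting error only. Whole cells of run 1, untreated (11061 UNT cells) or after the same 4 rounds (9331 ERI4 cells), stand beside the nuclei where the values differ. They come from another assay and another run, and the labels do not say whether they were grown together with the nuclei. No gene table was analysed here, so the identity of the cell line and of the clusters was not checked against marker genes, and clusters keep the numbers the authors deposited.

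Eribulin binds the growing ends of microtubules and keeps cells from building a working mitotic spindle. Cells that go through repeated rounds can be survivors that were already different, cells that changed, or both, and lineage barcodes were made to tell these apart: a barcode integrates into the genome and is passed on to all daughter cells. A nucleus holds the RNA still being made or waiting for export, and lacks most of the cytoplasmic RNA of a whole cell. Mitochondria are cytoplasmic, so mitochondrial RNA in a library of nuclei can come from material carried along or free in the suspension.

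Each lineage barcode is a synthetic stretch of 48 bases: a first part of 14 bases, the linker tggt and a second part of 30 bases. The sequences below belong to the barcodes on which the results turn. The first 5 were the most frequent in ERI4 nuclei by the latest call, listed in their order in ERI4 cells. The next 5 were the most frequent in UNT nuclei. The last was the most frequent in cluster 9 of the UNT nuclei, and that one was chosen after its values were seen. Capitals mark the first part.
bc14-55-bc30-23349: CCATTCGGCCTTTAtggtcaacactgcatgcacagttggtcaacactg
bc14-95-bc30-33662: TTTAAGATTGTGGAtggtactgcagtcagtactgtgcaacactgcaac
bc14-6-bc30-93034: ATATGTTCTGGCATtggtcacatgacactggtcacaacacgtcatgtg
bc14-76-bc30-49517: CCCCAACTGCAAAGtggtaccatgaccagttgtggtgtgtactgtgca
bc14-39-bc30-41529: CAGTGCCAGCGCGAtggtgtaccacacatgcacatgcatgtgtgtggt
bc14-22-bc30-14328: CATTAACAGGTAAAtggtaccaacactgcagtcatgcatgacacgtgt
bc14-50-bc30-60095: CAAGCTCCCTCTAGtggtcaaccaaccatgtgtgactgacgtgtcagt
bc14-22-bc30-18173: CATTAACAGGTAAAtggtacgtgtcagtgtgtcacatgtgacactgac
bc14-30-bc30-58918: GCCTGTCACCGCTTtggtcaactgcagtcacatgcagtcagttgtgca
bc14-95-bc30-65716: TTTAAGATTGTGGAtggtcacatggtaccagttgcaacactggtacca
bc14-18-bc30-67263: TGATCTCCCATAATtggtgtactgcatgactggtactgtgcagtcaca
The first part alone does not name a lineage. Barcodes 14328 and 18173 share theirs, and so do 33662, which was frequent after eribulin, and 65716, which was frequent without it. Below, a barcode is called by the number of its second part.

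The libraries differed in depth. The median was 3427.5 UMIs (counted RNA molecules) per UNT nucleus, with quartiles of 2665 and 4697, and 2089 UMIs per ERI4 nucleus, with quartiles of 1524 and 3117.5. Median genes per nucleus were 1746.5 and 1186. The distributions overlapped: the window from the higher of the 10th percentiles to the lower of the 90th ran from 2176.5 to 4971 UMIs. The shallowest nucleus had 1006 UMIs in the untreated and 1001 in the treated library, while whole cells went down to 507 (UNT) and 502 (ERI4). The filters given below name no UMI limit. From 1000 to under 1500 UMIs lay 71 UNT and 2071 ERI4 nuclei, so a limit near 1000 would weigh more on the treated library. In whole cells the order of the medians was the other way, with 18420 UMIs in UNT cells and 20877 in ERI4 cells. The nuclei libraries shared 134 cell barcodes of the droplet assay, 1.35% of the UNT and 1.54% of the ERI4 nuclei, and neither shared any with the whole cells.

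The nuclei of the untreated and the treated culture lay in different clusters. Clusters 0, 1, 5, 6 and 11 held 96.4% of the untreated library (96.03 to 96.8) and 1.27% of the treated one (1.05 to 1.53), and clusters 2, 3, 4, 8, 10 and 12 held 1.55% (1.32 to 1.82) and 97.3% (96.9 to 97.6). Summed over clusters, the smaller of the 2 shares came to an overlap of 3.33%. Of the untreated nuclei, cluster 0 alone took 64.7% (63.7 to 65.6), cluster 11 took 12.4% (11.73 to 13.04) and cluster 1 took 10.2% (9.62 to 10.8). Cluster 6 followed with 4.84%, cluster 5 with 4.34% and cluster 9 with 1.71%. Of the treated nuclei, cluster 4 took 53.9% (52.8 to 54.9) and cluster 10 took 24.3% (23.5 to 25.3). Clusters 2, 3, 8, 12 and 7 followed with 7.36%, 5.01%, 3.96%, 2.72% and 1.26%. In the common UMI window cluster 10 was ahead, with 35.6% against 27.5% in cluster 4, while cluster 0 kept 63.1% of UNT nuclei. No UNT nucleus was in cluster 3, and the upper limit of the interval was 0.0372%.

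Clusters 0, 4, 10 and 11 were clusters of nuclei, and they were singled out because hardly any whole cells enter them. Their low share of whole cells is therefore part of that choice. These clusters held 78.1% (77.5 to 78.7) of all nuclei and 3.08% (2.90 to 3.27) of the 33158 whole cells. The share of nuclei in them was nearly the same in both libraries, 77.6% of UNT and 78.7% of ERI4 nuclei. Nuclei made up 93.9% of cluster 0, 96.8% of cluster 4, 92.7% of cluster 10 and 81.8% of cluster 11. A library of nuclei shared little with the whole cells of its own treatment: the overlap of cluster shares was 25.5% between UNT nuclei and UNT cells, and 23.2% between ERI4 nuclei and ERI4 cells. Assay and run cannot be told apart here, because all nuclei were made in run 3 and no whole cells were.

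**Figure D1:**
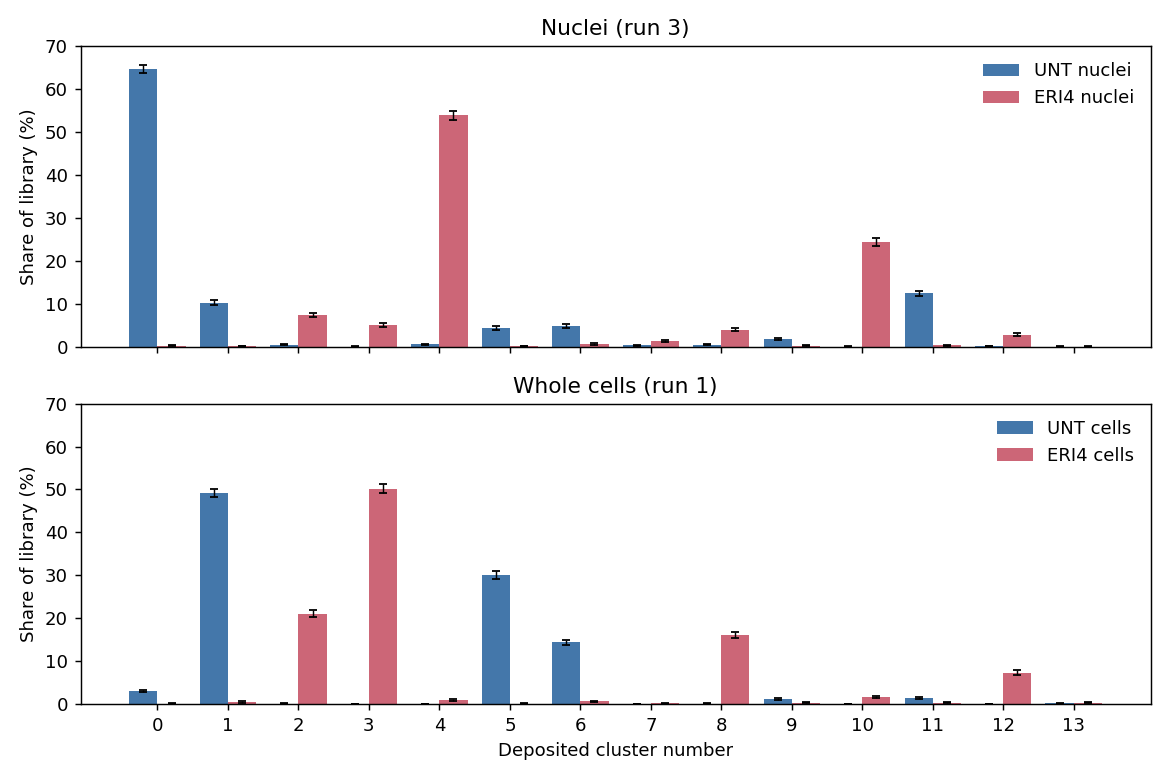
Share of each library in each deposited cluster, for nuclei (top) and whole cells (bottom); bars are 1 library each and error bars are exact 95% intervals. Clusters 0 and 11 (UNT) and 4 and 10 (ERI4) hold most nuclei and few whole cells, and the untreated and treated libraries hardly share a cluster in either assay.

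The minority of nuclei that did enter the clusters of whole cells went to the clusters of their own treatment. Clusters 1, 5 and 6, which held 93.8% of UNT cells, took 19.4% (18.6 to 20.2) of untreated nuclei and 0.769% (0.597 to 0.976) of treated nuclei. Clusters 2, 3, 8 and 12, which held 94.8% of ERI4 cells, took 1.01% (0.821 to 1.23) of untreated nuclei and 19.05% (18.2 to 19.9) of treated nuclei. In the common UMI window the last share was 32.8%. The order within them was not that of the cells. Cluster 3, the largest of ERI4 cells with 50.2%, came after cluster 2 in ERI4 nuclei.

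Within each library, the cluster of a nucleus followed its depth. When the ERI4 nuclei were ranked by UMIs and cut into 10 equal parts, cluster 4 held 95.99% of the shallowest part and 0.689% of the deepest, and cluster 10 held 1.49% and 90.9%. Clusters 2 and 3 were fullest in the 8th part, with 15.3% and 13.2%. Median UMIs were 1615 in cluster 4 and 4215 in cluster 10. So the pair of clusters that held most treated nuclei were its shallow and its deep end, and the clusters of whole cells lay between. The UNT nuclei showed the same kind of order with cluster 11 at the shallow end, from 49.1% of the shallowest part to 0.605% of the deepest, and cluster 0 at the deep end, from 14.6% to 95.5%. Cluster 1 was fullest in the 2nd part, with 18.2%, and fell to 2.22% in the deepest. Median UMIs were 2353 in cluster 11, 2812 in cluster 1, 2835.5 in cluster 5, 2870 in cluster 6 and 4024 in cluster 0.

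The few whole cells in these clusters did not keep that order. The 150 UNT cells in cluster 11 had a median of 54998 UMIs and the 339 in cluster 0 had 11059, against 18420 in their library. The 86 ERI4 cells in cluster 4 had a median of 59712.5 UMIs and the 157 in cluster 10 had 4729, against 20877. Thus the cluster that held the shallowest nuclei of a library held cells of 2.99 (UNT) and 2.86 (ERI4) times the library's median depth, and the cluster of its deepest nuclei held cells below the median. Those deep cells often had several detected lineage barcodes: 76.7% in cluster 11 against 59.5% of UNT cells, and 79.1% in cluster 4 against 39.7% of ERI4 cells. The part of depth in the cluster assignment was not tested, since counts per gene were not analysed and nuclei could not be thinned to 1 depth.

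Within ranges of UMIs the libraries still lay in different clusters. Nuclei were compared within 6 ranges, starting at 1000, 1500, 2000, 3000, 4500 and 7000. This matches UMIs only in part: the ERI4 minus UNT difference in median genes was -26, -44, -72, -42, 2 and 258 in these ranges. The overlap of cluster shares was 16.5% in the shallowest range, which held 71 UNT and 2071 ERI4 nuclei. It was 8.23%, 5.23%, 2.53% and 1.24% in the next ranges and 0.382% in the deepest, which held 707 and 415 nuclei. The overlap was thus largest among the shallowest nuclei, where 15.5% of UNT nuclei were in cluster 4, against 92.9% of ERI4 nuclei. From 2000 to under 3000 UMIs, which held 3003 UNT and 2295 ERI4 nuclei, cluster 4 held 0.566% of UNT and 46.1% of ERI4 nuclei, and cluster 0 held 41.6% and 0.349%.

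**Figure D2:**
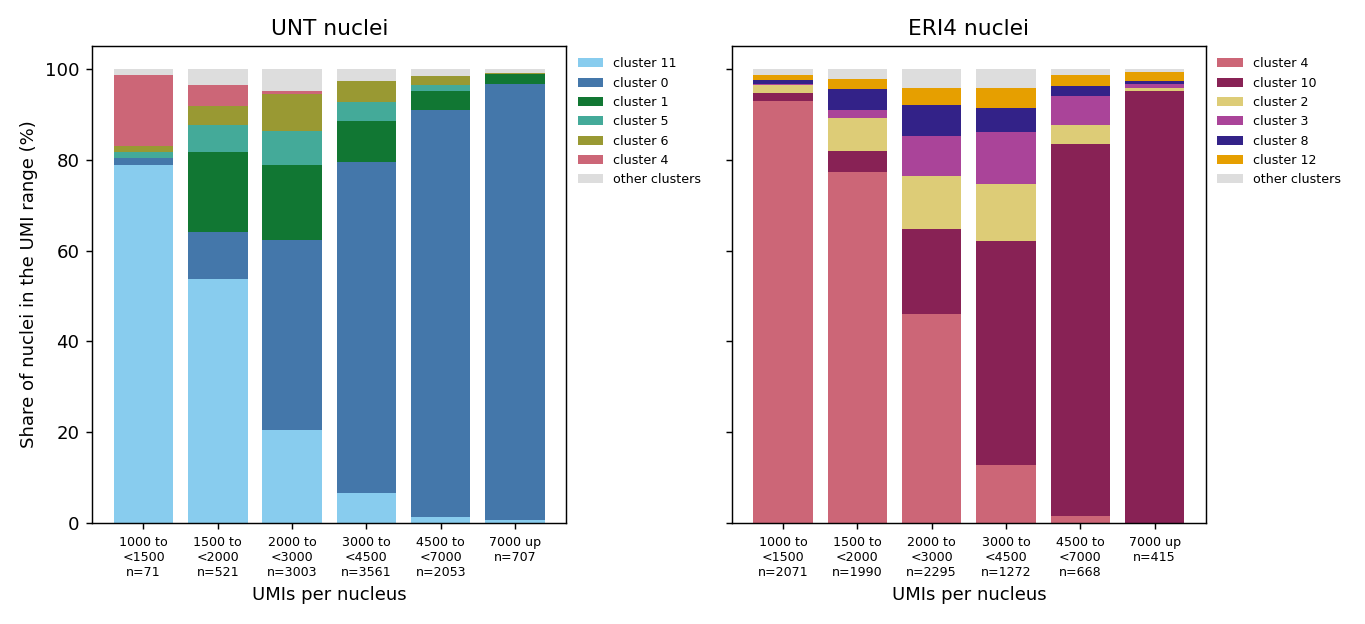
Share of nuclei in each deposited cluster within 6 ranges of UMIs per nucleus, for UNT nuclei (left) and ERI4 nuclei (right), with the number of nuclei in each range under the bar. From shallow to deep, UNT nuclei pass from cluster 11 (78.9%) to cluster 0 (95.9%) and ERI4 nuclei from cluster 4 (92.9%) to cluster 10 (95.2%), with the clusters of whole cells fullest in between.

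The mitochondrial share of UMIs was higher after eribulin. Its median was 9.43% in UNT nuclei, with quartiles of 7.98 and 11.04, and 12.8% in ERI4 nuclei, with quartiles of 10.3 and 15.8. Above 15% lay 2.07% (1.80 to 2.37) of the untreated and 30.5% (29.5 to 31.5) of the treated nuclei, and above 20% lay 0.151% (0.0847 to 0.249) and 7.07% (6.54 to 7.63). The difference of 3.40 percentage points between the library medians was smaller in shallow and larger in deep ranges of UMIs. It was 2.45 and 2.68 points in the 2 shallowest ranges, 3.88, 5.14 and 6.23 in the next, and 6.75 from 7000 UMIs up. Among ERI4 nuclei the median was 11.8% in cluster 4 and 15.4% in cluster 10, where 14.99% of nuclei (13.5 to 16.6) were above 20%. It was 12.9% in cluster 2, 12.04% in cluster 3, 12.3% in cluster 8 and 13.5% in cluster 12. Among UNT nuclei it stayed between 8.41% in cluster 11 and 9.82% in cluster 6, with 9.60% in cluster 0. Every ERI4 cluster of over 100 nuclei therefore had a higher median than any UNT cluster of over 100. Whole cells showed a smaller difference in the same direction, 4.09% in UNT and 4.70% in ERI4 cells.

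Pseudotime is a deposited score of how far a cell lies along a path of states, with untreated cells as the starting point, on an arbitrary scale. It was higher after eribulin. The median was 13.3 in UNT nuclei, with quartiles of 10.8 and 14.9, and 22.7 in ERI4 nuclei, with quartiles of 20.9 and 24.7. In 98.6% of all pairs of 1 nucleus from each library, the ERI4 nucleus was higher. The medians of whole cells were farther apart, at 7.59 in UNT and 26.6 in ERI4 cells, so the libraries of nuclei lay nearer each other than those of cells. The authors set the starting point in untreated cells, so the direction of the difference is not independent of that choice.

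Pseudotime of nuclei also followed depth, upward in both libraries. Spearman's rho between UMIs and pseudotime was 0.460 over UNT nuclei and 0.685 over ERI4 nuclei, against 0.0714 over UNT cells and -0.130 over ERI4 cells. Within single clusters of nuclei rho was 0.498 in cluster 4 and 0.430 in cluster 10 (ERI4), and 0.241 in cluster 0 and 0.305 in cluster 11 (UNT). These are descriptions over nuclei of 1 library each. The cluster medians were 9.23 in cluster 11, 10.4 in cluster 5, 10.75 in cluster 1, 11.01 in cluster 6 and 14.2 in cluster 0 for UNT nuclei. They were 21.1 in cluster 4, 22.7 in cluster 8, 23.5 in cluster 2, 24.03 in cluster 3, 24.99 in cluster 10 and 25.4 in cluster 12 for ERI4 nuclei. Among these clusters, the one of shallow nuclei came first in each library, and the cluster of deep nuclei came last or, in the treated library, next to last. Cluster 9 of the UNT nuclei, at 23.9 with a median of 3050 UMIs, lay outside that order.

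Within the 6 ranges of UMIs, the ERI4 median exceeded the UNT median by 11.3, 12.2, 11.8, 11.2, 10.8 and 10.6, next to 9.40 for the pooled libraries. The part of depth in the difference was not tested beyond these ranges. In the shallowest range 96.6% of pairs had the ERI4 nucleus above, and in the deepest 99.99%. In the 6 clusters that held at least 20 nuclei of both libraries (2, 4, 6, 7, 8 and 11), the ERI4 median was higher by 7.76 to 12.6, with a mean of 9.54. These clusters hold 18.99% of UNT and 67.3% of ERI4 nuclei.

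**Figure D3:**
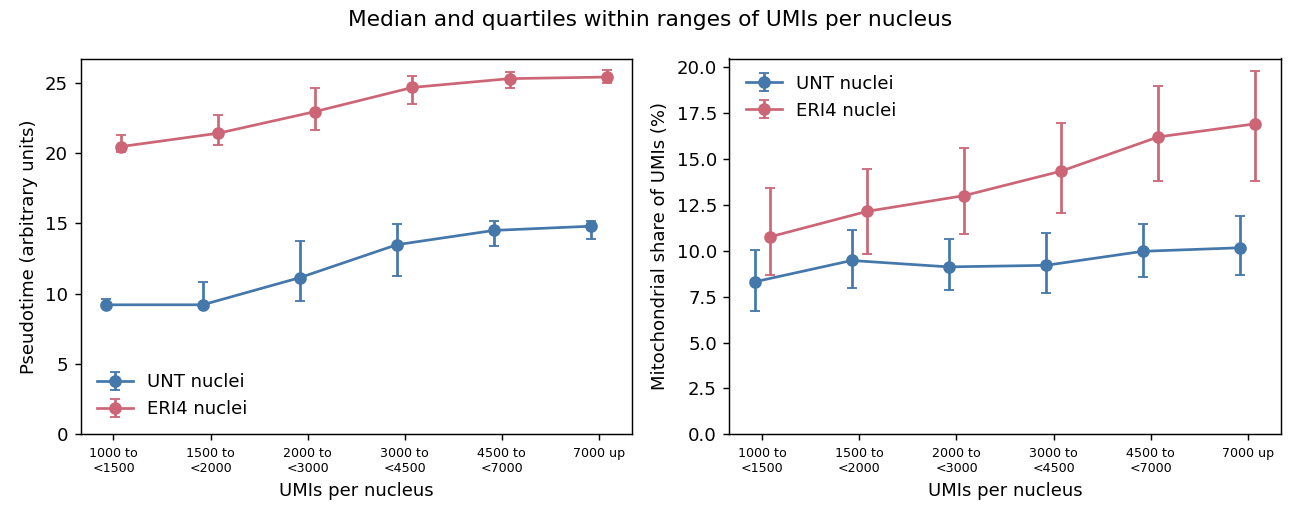
Median pseudotime (left) and median mitochondrial share of UMIs (right) within 6 ranges of UMIs per nucleus; bars are the quartiles, and each library is 1 line. Pseudotime rises with depth in both libraries and ERI4 nuclei lie 10.6 to 12.2 above UNT nuclei in every range, while the mitochondrial share rises with depth mainly in ERI4 nuclei.

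Nuclei found in a cluster of the other treatment differed in how near they lay to their own library in pseudotime. The 111 ERI4 nuclei in clusters 0, 1, 5, 6 and 11 had a median of 18.8, below the 22.7 of their library and above the 13.3 of UNT nuclei, and the 154 UNT nuclei in clusters 2, 3, 4, 8, 10 and 12 had the median of theirs (13.3). The 52 UNT nuclei in cluster 4 had a median pseudotime of 11.5, against 21.1 for the 4693 ERI4 nuclei there, and a median of 1792 UMIs. The 19 ERI4 nuclei in cluster 0 had a median of 22.96, against 14.2 for its 6411 UNT nuclei, and a mitochondrial share of 12.7%, near that of their own library. The 25 ERI4 nuclei in cluster 11 were less like their library: their median pseudotime was 17.7 and their mitochondrial share 8.35%. On the deposited UMAP, the 30 nearest nuclei of these groups were on average 81.2%, 88.6% and 68.4% from their own library, where the main clusters had at least 99.3%. The medians of the same groups were 96.7%, 100% and 100%, so the lower means came from a part of their nuclei. Of the 111 ERI4 nuclei in clusters 0, 1, 5, 6 and 11, 5 (4.50%) carried a droplet cell barcode that also occurs among UNT nuclei, against 1.54% of the library. The other direction showed no such excess. Of the 154 UNT nuclei, 1 (0.649%) carried a cell barcode that also occurs among ERI4 nuclei, against 1.35% of the UNT library. Both counts are small, and the difference was not tested.

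A small set of untreated nuclei had the pseudotime of treated ones. Above the 10th percentile of ERI4 nuclei lay 163 UNT nuclei (1.64%, 1.40 to 1.91), and 130 of these were in cluster 9. That cluster held 170 UNT nuclei and 17 ERI4 nuclei, the latter 0.195% of their library. Of its 2472 members, 2112 were whole cells of run 2, treated with paclitaxel or with fewer rounds of eribulin. Its UNT nuclei had a median pseudotime of 23.9, above the 21.98 of its ERI4 nuclei. Their depth (3050 UMIs) and mitochondrial share (9.05%) were those of untreated nuclei. Of the 66 UNT nuclei of cluster 9 with a called barcode, 16 carried barcode 67263 (24.2%, 14.5 to 36.4), and these were 16 of its 18 nuclei in the library. In UNT cells, all 6 cells of this barcode were in cluster 9 too. Next were 2 barcodes with the same first part, CTAAAGGCGGTCGT, and 7 nuclei each in cluster 9. For 60126 these were 7 of its 8 UNT nuclei, and for 29939 they were 7 of 15 (46.7%).

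Lineage barcodes were detected less often in treated nuclei. At least 1 barcode was detected in 61.1% (60.1 to 62.1) of the untreated and 52.3% (51.3 to 53.4) of the treated nuclei. The number detected was taken as the deposited number of barcode features less 1, since every nucleus has at least 1 feature. What that feature is is not given in the sources used here, and the detection shares and the completed call rest on this assumption. Nuclei with none left still have a median of 255 (UNT) and 269 (ERI4) barcode counts. Within ranges of UMIs the share was not lower after eribulin in any of the 6. It was 30.99% in UNT and 31.3% in ERI4 nuclei of 1000 to under 1500 UMIs, 50.8% and 54.7% from 2000 to under 3000, and 87.6% and 93.3% from 7000 UMIs up. The share with several barcodes was lower after eribulin in all 6 ranges. Over the whole libraries, 20.5% of UNT nuclei and 7.46% of ERI4 nuclei had 2 or more detected barcodes, and the values were 28.01% and 21.3% among nuclei of 4500 to under 7000 UMIs.

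Calls differed more than detection. The table carries 3 successive calls for each nucleus, and by the latest one a single barcode was named in 49.8% (48.8 to 50.8) of UNT nuclei and in 17.2% (16.4 to 17.97) of ERI4 nuclei. Of UNT nuclei with exactly 1 detected barcode, 95.7% had a latest call; of such ERI4 nuclei, 23.3% did. The other 175 UNT and 2997 ERI4 nuclei had none; 159 and 2977 of these were named Negative. The 2977 were like the 912 called ERI4 nuclei with 1 detected barcode in depth (medians of 2344 and 2475 UMIs) and in barcode counts (297 and 315).

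In UNT nuclei the first revision of the call named all of the Negative ones with 1 detected barcode, and gave them 1 name. In all 159 UNT nuclei it gave barcode 58918, which was the most frequent barcode of that revision in the library (258 nuclei) and had 100 nuclei by the latest call. In ERI4 nuclei the first revision, read row by row, did not follow detection. It named barcode 23349 in 36.6% of nuclei with no detected barcode, in 36.9% of those with 1 and in 36.6% of those with 2, and where both calls named a barcode they named the same one in 320 of 939 nuclei. UNT nuclei stand in the table in the order of their cell barcodes; ERI4 nuclei do not. When the first-revision names of ERI4 nuclei were handed out in table order to the nuclei sorted by cell barcode, the 2 calls named the same barcode in 897 of 1034 nuclei (86.8%), nuclei with no detected barcode and a named one dropped from 1909 to 215, and barcode 23349 was named in 2977 of the 2977 nuclei. In table order it was named in 1063 of them, and no barcode in 1621. This reordering was found after the data were seen, and how the column was made is not given in the sources used here.

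In the completed call used below, nuclei named Negative with 1 detected barcode take the first-revision name, in cell barcode order for ERI4 nuclei. It named a barcode in 51.4% of UNT and 51.3% of ERI4 nuclei. By the latest call barcode 23349 made up 10.1% (8.62 to 11.7) of the called ERI4 nuclei, and by the completed call it made up 69.9% (68.6 to 71.3), or 3128 of 4472. In ERI4 cells, whose calls had no part in the completion, it made up 68.4% (67.2 to 69.5). In UNT nuclei barcode 58918 went from 2.03% (1.65 to 2.46) to 5.08% (4.50 to 5.72), against 5.15% (4.56 to 5.79) of UNT cells. The other leading untreated barcodes gained no nuclei and lay below their shares of UNT cells by both calls. By the completed call 14328 was 3.63% against 4.91% of cells, and 60095 was 2.30% against 4.03%. Barcode 18173 was 2.04% against 3.01%, and 65716 was 1.69% against 2.16%. The shares in nuclei and cells come from 1 library each of different assays and runs, the completion was chosen after the data were seen, and the differences between nuclei and cells were not tested.

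The completion added nuclei only to barcode 23349 in the treated library, so the shares of its other lineages all fell by 1 factor while their counts stayed. Barcode 93034 was 28.4% of called ERI4 nuclei by the latest call, 9.50% (8.66 to 10.4) by the completed call and 9.92% of ERI4 cells. Barcode 41529 was 5.28%, 1.77% (1.40 to 2.20) and 1.68%, and barcode 49517 was 30.2%, 10.1% (9.24 to 11.03) and 6.42%. Barcode 33662 was 12.6% and 4.20% (3.63 to 4.83), against 10.7% (9.96 to 11.5) of ERI4 cells. Among called nuclei 33662 was fewer than 49517, with 188 against 452, and among called cells it was the more frequent of the pair; this order does not depend on the completion.

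**Figure D4:**
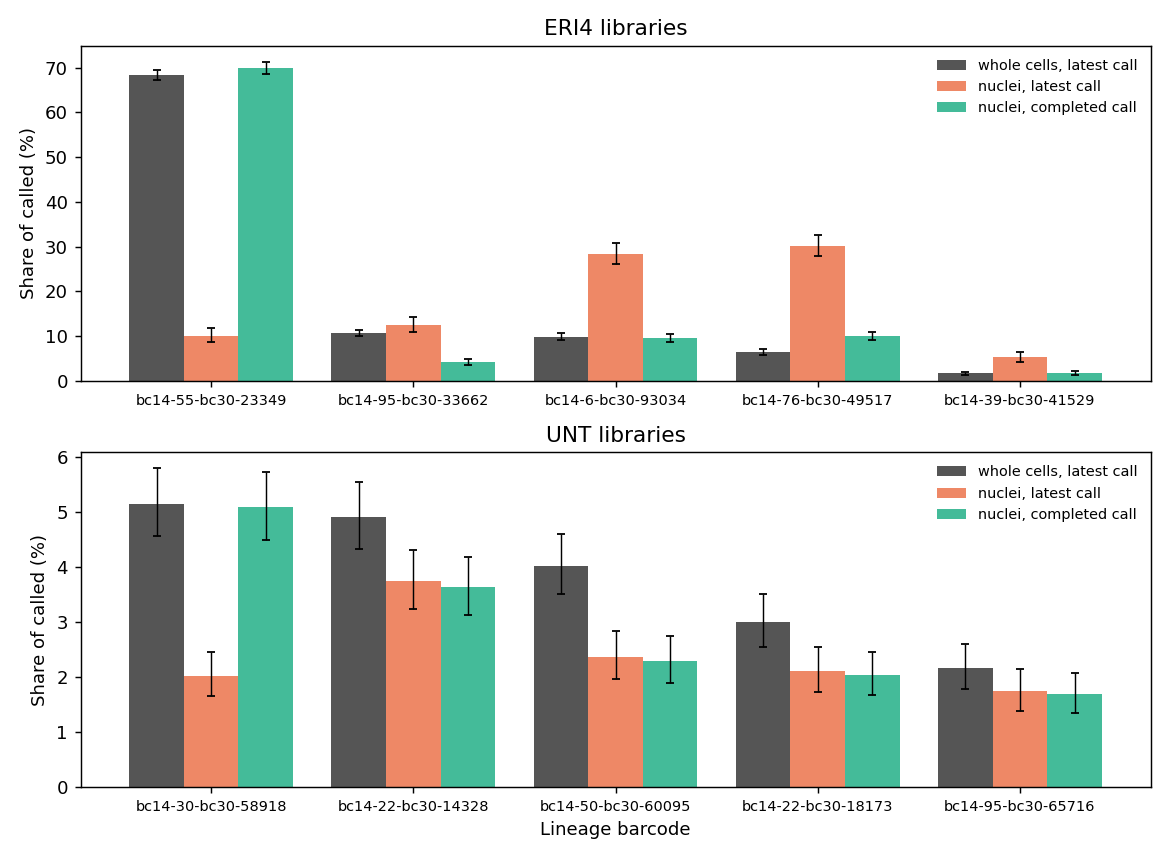
Share of called cells or nuclei that carry each of 5 barcodes in the ERI4 (top) and UNT libraries (bottom), for whole cells by the latest call and for nuclei by the latest and the completed call. The 5 are those with most ERI4 or UNT cells among the barcodes chosen by their numbers of nuclei or of ERI4 cells, not among all barcodes. Error bars are exact 95% intervals. Barcode 23349 goes from 10.1% to 69.9% of ERI4 nuclei and 58918 from 2.03% to 5.08% of UNT nuclei, next to 68.4% and 5.15% of the cells. The other UNT barcodes shown lie below their shares of cells by both calls.

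Each of these lineages made up less than 1% of the called UNT nuclei, in which a barcode had a mean of 10.2 nuclei and a median of 4. In UNT nuclei barcode 23349 was called in 19 of 4935 nuclei (0.385%, 0.232 to 0.601), 41529 in 44 (0.892%), 93034 in 12 (0.243%), 33662 in 6 (0.122%) and 49517 in 2 (0.0405%). Barcodes 41529, 23349 and 93034 were thus above the mean per barcode in the untreated library, 33662 was between the median and the mean, and 49517 was below both. The leading untreated barcodes went the other way. Barcode 14328 was called in 185 UNT nuclei (3.75%, 3.24 to 4.32), 60095 in 117 (2.37%), 18173 in 104 (2.11%) and 58918 in 100 (2.03%). None of the 4 was called in an ERI4 nucleus, and the upper limit of the interval was 0.246% for each. Barcode 65716, with 86 UNT nuclei (1.74%), was called in 2 ERI4 nuclei.

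Treated nuclei carried fewer lineages. The latest call named 486 barcodes in the untreated library and 65 in the treated one. The 10 most frequent made up 19.9% (18.8 to 21.02) and 94.3% (93.02 to 95.4) of called nuclei. Among 400 called nuclei, 183 different barcodes are expected in the untreated and 28.7 in the treated library, and with the completed call 179.9 and 16.02. The same number from ERI4 cells holds 10.2. Of the 65 barcodes in ERI4 nuclei, 58 (89.2%) were also called in UNT nuclei, where they are 11.9% of the barcodes. Between nuclei and cells, 341 barcodes were shared by the untreated libraries (70.2% of the nuclei's and 67.4% of the cells' barcodes). In the treated libraries 14 were shared, which is 21.5% of the nuclei's barcodes and 87.5% of the 16 in the cells; of the 65 in nuclei, 41 were called in a single nucleus.

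Nuclei of 1 lineage shared a cluster less often than cells of 1 lineage. In ERI4 cells 92.4% of pairs of cells with the same barcode were in 1 cluster, against 49.9% of all pairs of called cells. In ERI4 nuclei these values were 36.5% and 32.8% with the completed call, and 31.6% and 28.7% with the latest. In UNT nuclei they were 57.7% and 47.8% with the completed call and 53.0% and 47.1% with the latest, against 84.6% and 42.5% in UNT cells. The excess of same-barcode pairs over all pairs was 2.93 to 9.87 points in nuclei over both calls, and 42.1 (UNT) and 42.5 points (ERI4) in cells. Most same-barcode pairs of ERI4 cells, and of ERI4 nuclei by the completed call, are pairs of barcode 23349. It had 4597 of 6725 called cells and 3128 of 4472 called nuclei.

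Every large lineage of treated nuclei had most of its shallow nuclei in cluster 4 and most of its deep ones in cluster 10. Whether depth itself set the cluster was not tested. By the completed call, barcode 23349 had 51.1% (49.4 to 52.9) of its nuclei in cluster 4 and 31.2% in cluster 10. Another 8.28% were in cluster 3, the cluster that held 96.4% of its cells. By the latest call the order was reversed, with 11.9% of its 151 nuclei in cluster 4 and 80.1% in cluster 10. Those 151 nuclei had a median of 6806 UMIs, against 2423.5 by the completed call. Below 2000 UMIs 90.8% of the nuclei of 23349 by the completed call were in cluster 4, and from 4500 UMIs up 88.4% were in cluster 10. For barcode 49517 these shares were 86.1% and 85.4%, and for 93034 they were 75.4% and 93.1%. The other 2 lineages had fewer nuclei at the deep end: 33662 had 52 of 65 shallow nuclei in cluster 4 and 25 of 37 deep ones in cluster 10, and 41529 had 19 of 22 and 16 of 24.

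Within ranges of UMIs the lineages also differed by cluster, with the largest shares in the middle range. From 2000 to under 4500 UMIs, 30.5% (24.2 to 37.4) of the nuclei of 49517 were in cluster 2, against 8.72% of all called ERI4 nuclei of that depth; cluster 2 held 95.8% of its cells. Cluster 8, which held 90.1% of the cells of 93034 and 90.5% of those of 33662, took 23.7% (17.99 to 30.3) and 30.2% (20.8 to 41.1) of their nuclei, against 6.66% of all. Cluster 12, with 96.5% of the cells of 41529, took 20 of its 33 nuclei (60.6%, 42.1 to 77.1), against 3.45% of all. Each of these 4 lineages was thus found more often in the cluster of its own cells than called nuclei of the same UMI range were. For 23349, which makes up most of the nuclei it is compared with, cluster 3 took 13.7% (12.01 to 15.6) against 11.6% of all. The shallow and deep ranges went the same way with smaller shares. Below 2000 UMIs cluster 2 took 10.7% of 49517, against 2.19% of all. Cluster 8 took 10.3% of 93034 and 13.8% of 33662, against 2.99%. From 4500 UMIs up these shares were 7.69% against 2.05%, and 4.95% and 13.5% against 1.71%. Cluster 12 took 3 of 22 shallow and 7 of 24 deep nuclei of 41529, against 1.26% and 1.93%.

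**Figure D5:**
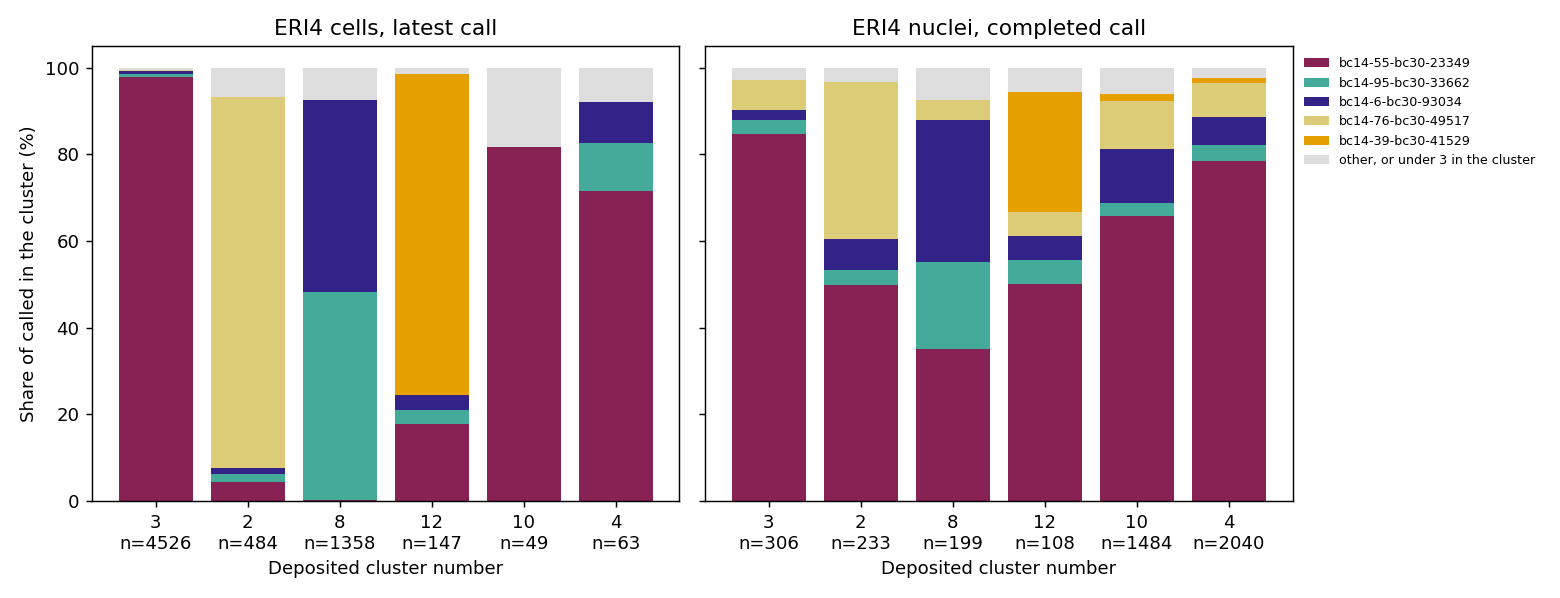
Make-up of 6 clusters by lineage barcode in ERI4 cells (left, latest call) and ERI4 nuclei (right, completed call), as shares of the called cells or nuclei in the cluster, with their number under each bar. In cells, clusters 3, 2, 8 and 12 each belong to 1 or 2 barcodes; in nuclei barcode 23349 makes up 35.2% to 84.6% of every cluster shown.

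Seen from the clusters, barcode 23349 made up 84.6% of the called ERI4 nuclei of cluster 3, 78.4% of cluster 4, 65.8% of cluster 10, 54 of 108 of cluster 12, 49.8% of cluster 2 and 35.2% of cluster 8. Its share was lowest where the cells of other lineages lay. Nearly all of these nuclei are the ones named Negative by the latest call, so the share without a call has to run in the same order. Of nuclei with 1 detected barcode, those with no latest call were 90.8% (86.8 to 93.99) in cluster 3, 81.8% in cluster 4, 74.1% in cluster 10, 59.3% in cluster 12, 56.9% in cluster 2 and 41.6% (33.98 to 49.5) in cluster 8.

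Untreated lineages also left the cluster of their cells. In UNT cells barcodes 14328, 60095 and 58918 had 97.2%, 94.1% and 96.2% of their cells in cluster 1, while in UNT nuclei 83.8%, 70.9% and 86.1% were in cluster 0 (completed call) and 10.3%, 18.8% and 6.95% in cluster 1. Barcodes 18173 and 65716, with 91.5% and 89.1% of their cells in cluster 5, had 8.65% and 15.1% of their nuclei there and 63.5% and 68.6% in cluster 0. None of the first 3 had over 1% of its nuclei in cluster 5. The shallow cluster 11 held 20.2% and 13.95% of 18173 and 65716, against 3.78%, 9.40% and 5.02% of the first 3. Median pseudotime in nuclei was 15.2 for 14328, 16.5 for 60095 and 16.5 for 58918, and 11.7 for 18173 and 11.9 for 65716. Rounded to 2 decimals, the most frequent pseudotime was 16.51, with 482 UNT nuclei. Of the 309 of them with a completed call, 122 (39.5%, 33.99 to 45.2) carried barcode 58918, which are 47.1% (40.9 to 53.4) of its 259 nuclei. Barcode 60095 had 43 of its 117 nuclei there (36.8%), and 68976, the next most frequent at this value, 28 of 79 (35.4%).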

How the data were processed

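RNA was measured in nuclei of 2 libraries of run 3. Counting used Cell Ranger ARC 1.0.0 for the nuclei and Cell Ranger 3.1.0 for the whole cells of run 1, with mm10 as reference, per the design text of the series and the submitters' processing notes. Cells with under 200 genes or over 50% mitochondrial or ribosomal UMIs were removed, Seurat 3.1.4 clustered the rest, and Monocle3 gave pseudotime over the merged samples. No nucleus fell outside the gene or mitochondrial limit. The deposited counts are UMIs, genes, barcode counts and barcode features per nucleus, without normalization. The deposited percent is the share of UMIs in mitochondrial genes. The deposited score columns hold pseudotime and UMAP coordinates on arbitrary scales. Cluster numbers and barcode calls are the authors'; how barcodes were called is not given in the sources used here.

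Shares, medians and rank correlations were computed with pandas 2.3.3 and scipy 1.17.1, UMAP neighbours with scikit-learn 1.9.0, and checked on simulated data. A share of 0 stands with the share that 3 nuclei would make. A call counts where it names a single barcode. No doublet caller was run; the latest call names 6.90% of UNT and 0.528% of ERI4 nuclei Doublet. Barcode names in UNT nuclei lack 2 hyphens and were matched after these were put back; all 493 barcodes called in nuclei were in the deposited list. Clusters named are those with at least 1% of a nuclei library, and barcodes are the 5 with most nuclei in each library by the latest call or its first revision and the 3 with most ERI4 cells. The nuclei and these lists were chosen with earlier results of these data known. The alternatives tried were a common UMI window, limits on genes and mitochondrial share, leaving out cluster 13, the mean over clusters, the other barcode calls and nuclei with exactly 1 detected barcode; the completed call was added after the data were seen.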

Additional observations from a re-analysis of the deposited data

Results flagged for a closer look

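Of 9 quantities compared between ERI4 and UNT in nuclei and in whole cells, 4 moved in opposite directions by at least 1 unit or percentage point; the differences between assays were not tested, and each rests on 1 library a group. Median UMIs changed by -1338.5 in nuclei and by 2457 in whole cells, and median genes by -560.5 and 349. The share with 1 or more detected barcodes changed by -8.77 percentage points in nuclei and by 8.96 in whole cells. The share with a latest barcode call changed by -32.6 points in nuclei and by 26.1 in whole cells; with the completed call the change in nuclei was -0.0341 points.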

How the results depend on the processing

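In the common window of 2176.5 to 4971 UMIs, cluster 4 held 27.5% and cluster 10 held 35.6% of ERI4 nuclei, cluster 0 held 63.1% and cluster 11 held 10.6% of UNT nuclei, clusters 1, 5 and 6 held 22.6% of UNT nuclei and clusters 2, 3, 8 and 12 held 32.8% of ERI4 nuclei. The ERI4 minus UNT median was then 11.3 for pseudotime and 4.57 points for the mitochondrial share. The called share of ERI4 nuclei was 18.9%, the 10 most frequent barcodes made up 97.5% of them and barcode 23349 made up 6.24%. Same-barcode pairs were in 1 cluster in 26.6% (ERI4; all pairs 20.6%) and 49.1% (UNT; 43.4%).

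With nuclei of at least 1000 genes, clusters 4 and 10 held 35.4% and 35.5% of ERI4 nuclei, clusters 0 and 11 held 66.001% and 11.05% of UNT nuclei, clusters 2, 3, 8 and 12 held 25.8% of ERI4 nuclei, and the differences were 10.3 in pseudotime and 4.16 points in mitochondrial share. With at most 20% mitochondrial UMIs, clusters 4 and 10 held 55.2% and 22.3%, and the differences were 9.11 and 3.05 points. Leaving out cluster 13 moved no result it was run on by more than its counting error. That cluster held 2 UNT nuclei and no ERI4 nucleus, so this alternative could hardly move any result.

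With the first revision in table order, 48.7% of ERI4 nuclei were called, the 10 most frequent barcodes made up 98.7% (ERI4) and 23.02% (UNT), barcode 23349 made up 75.4%, and same-barcode pairs were in 1 cluster in 35.9% (ERI4; all pairs 35.1%) and 58.03% (UNT; 47.5%). With the original call these were 5.15% called in ERI4 and 24.9% in UNT nuclei, 87.8% and 16.5% in the 10 most frequent, 21.4% for barcode 23349 and 49.1% of ERI4 pairs (all pairs 36.2%, from 449 called nuclei). Among nuclei with exactly 1 detected barcode, 23.3% (ERI4) and 95.7% (UNT) were called, the 10 most frequent made up 96.4% and 22.3%, barcode 23349 made up 13.7%, and 51.1% of UNT pairs were in 1 cluster. With the completed call the called shares were 51.3% and 51.4%, the 10 most frequent made up 98.1% (ERI4) and 22.4% (UNT), barcode 23349 made up 69.9%, and pairs were in 1 cluster in 36.5% (ERI4) and 57.7% (UNT). The order of clusters 4 and 10 turned in the common UMI window and, narrowly, with at least 1000 genes. The differences in pseudotime and mitochondrial share between whole libraries kept their sign in these alternatives. Those in UMIs and genes kept theirs too, but were recomputed only under the mitochondrial limit and with a cluster left out. Within ranges of UMIs the difference in median genes was negative below 4500 UMIs, and 2 and 258 in the ranges above. Within cluster 9, with 170 UNT and 17 ERI4 nuclei, the pseudotime difference was -1.90. The overlap of cluster shares, the UMI difference and the pseudotime difference averaged within clusters moved by less than their counting error, and for the other moves the cause was not tested. No paired analysis was possible because each condition has 1 library of nuclei, and for the same reason no replicate was left out.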
